A study of Sus scrofa with 2 samples.

Results

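FKBP5, NR3C1, PER1 and ZBTB16 were followed in longissimus dorsi, a long back muscle, of pigs. They are 4 genes of the glucocorticoid receptor axis, out of 27987 entries in the deposited table, of which 11374 carried a gene symbol. They were chosen by symbol through their Ensembl pig gene identifiers, with their values in these libraries already known, and each symbol stood on 1 entry. The study raised 16 crossbred barrows (castrated male pigs, Duroc boars on Yorkshire-Landrace sows, labelled DLY) of 79.0 ± 1.5 kg from 8 litters. Of these, 8 were kept at a constant 22 °C (control) and 8 at a constant 30 °C (heat) for 21 days. The labels name no genetic alteration, drug or hormone in either arm. Each arm is represented by 1 messenger RNA library, called the control and the heat library. The sources used here give neither the age of the pigs nor whether several were pooled into a library. Temperature, pigs and library therefore cannot be told apart, and no significance test across pigs is possible.

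The glucocorticoid receptor, encoded by NR3C1, is a transcription factor that waits in the cytoplasm in a complex with the chaperone HSP90 and its co-chaperones. Cortisol binding sends it to the nucleus, where it switches target genes on or off. FKBP5 encodes FKBP51, an immunophilin co-chaperone that lowers the receptor's affinity for hormone and whose own gene is induced by the receptor, which forms a negative feedback loop. PER1, a repressor of the circadian clock, and ZBTB16, a zinc finger transcription factor also called PLZF, are further genes that glucocorticoids induce in many tissues. In skeletal muscle glucocorticoids are known for promoting protein breakdown and for sparing glucose.

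Of the 4 genes, FKBP5 stood apart between the libraries, while NR3C1, PER1 and ZBTB16 differed little. FKBP5 (ENSSSCG00000001549) was at 9.33 RPKM at 22 °C and 21.2 RPKM at 30 °C, where RPKM is reads scaled to gene length and library total. The RPKM ratio of heat over control was 2.27, with a 95% counting interval of 2.00 to 2.58 from 355 and 780 reads. Its log2((heat RPKM + 1)/(control RPKM + 1)), called the log2 ratio from here on, was 1.10. The interval is an exact Clopper-Pearson interval on the smallest whole read numbers that the deposited values allow, so it covers counting error only and says nothing about the spread between pigs.

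The receptor gene itself was nearly level. NR3C1 (ENSSSCG00000014401) was at 15.96 RPKM at 22 °C and 16.5 RPKM at 30 °C, a ratio of 1.04 (counting interval 0.875 to 1.23) on at least 281 and 282 reads. A difference in its transcript level was thus not detectable on these smallest reads, beyond what that interval allows. True reads can be a multiple, which would make the interval narrower. PER1 (ENSSSCG00000017983) was at 88.3 RPKM at 22 °C and 83.7 RPKM at 30 °C, a ratio of 0.948 (0.908 to 0.990) on 4416 and 4055 reads. Its interval lay below 1, but so did that of 10.4% of the 13098 entries with an interval, and its log2 ratio was -0.08. ZBTB16 (ENSSSCG00000030095) was at 16.5 RPKM at 22 °C and 15.9 RPKM at 30 °C, a ratio of 0.964 (0.847 to 1.10) on 496 and 463 reads. The ratios of PER1 and ZBTB16 were thus close to 1 and slightly below it, unlike that of FKBP5, and the interval of ZBTB16 holds 1.

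**Figure D1:**
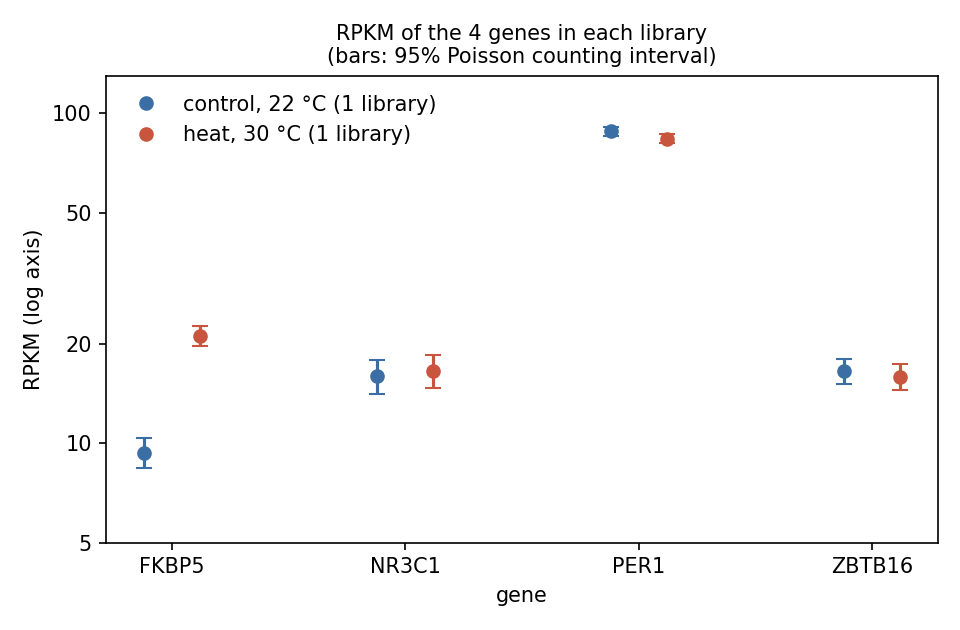
RPKM (log axis) of FKBP5, NR3C1, PER1 and ZBTB16 in the control library at 22 °C and the heat library at 30 °C, 1 point per library, with bars for the 95% Poisson counting interval. The intervals of the libraries are far apart for FKBP5 (8.39 to 10.4 against 19.7 to 22.7 RPKM) and overlap for the other 3 genes.

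The order of the 4 genes differed between the libraries. In the control library FKBP5 was the lowest, below NR3C1 (14.1 to 17.9 RPKM by its Poisson counting interval) and ZBTB16 (15.1 to 18.0 RPKM). In the heat library FKBP5, at 19.7 to 22.7 RPKM, lay above both NR3C1 (14.7 to 18.6 RPKM) and ZBTB16 (14.5 to 17.4 RPKM). NR3C1 and ZBTB16 were neighbours whose intervals overlapped in both libraries. PER1 was the highest of the 4 in both, with a control level above that of 95.5% of the 13191 entries compared, those with a mean RPKM of at least 1. FKBP5 lay above 68.7% of these entries in the control library and above 83.5% in the heat library, while NR3C1 stayed at 79.3% in each.

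Ratios between genes within a library do not depend on how the libraries are scaled to each other. The FKBP5 level was 0.585 times that of NR3C1 in the control library and 1.28 times in the heat library, so the ratio was 2.19 times as high (exact conditional 95% counting interval 1.77 to 2.71). Against ZBTB16 the FKBP5 ratio was 2.35 times as high (1.96 to 2.82), and against PER1 2.39 times (2.09 to 2.74). PER1 over NR3C1 was 0.915 times its control value (0.769 to 1.09), and ZBTB16 over NR3C1 was 0.930 times (0.751 to 1.15), and both intervals hold 1.

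Among all 13191 entries compared, 83 were at least 2-fold higher at 30 °C by log2 ratio (0.629%) and 77 at least 2-fold lower (0.584%). FKBP5 was the only one of the 4 genes past 2-fold, and since the genes were chosen with these values known, nothing is read from that count. By log2 ratio it ranked 60th of the 13191 entries and 7th of the 6990 with a symbol. Among entries with a mean RPKM of at least 5, FKBP5 ranked 14th of 6416, and 5th of the 3964 with a symbol. NR3C1 ranked 6634th, ZBTB16 8903rd and PER1 9390th of 13191. The median log2 ratio of all entries was 0.05, and 95% of them lay between -0.57 and 0.66.

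**Figure D2:**
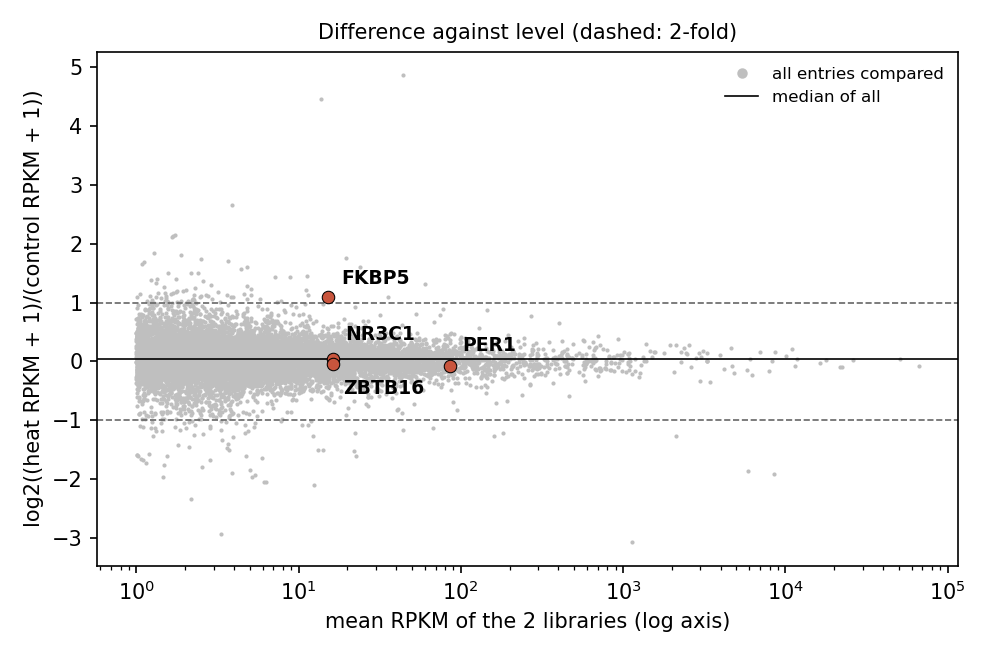
Log2((heat RPKM + 1)/(control RPKM + 1)) against the mean RPKM of both libraries (log axis) for the 13191 entries compared, with the 4 genes as large points, dashed lines at 2-fold and a solid line at the median of 0.05. FKBP5 (1.10) lies above the upper dashed line, and NR3C1 (0.05), ZBTB16 (-0.05) and PER1 (-0.08) lie in the dense band around the median.

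Hormone supply and other steroid receptors were represented by few measured genes. Of 11 listed genes, 6 were matched, and only NR3C1 and the oestrogen receptor gene ESR1 had a mean RPKM of at least 1. ESR1 was at 2.90 and 2.79 RPKM at 22 and 30 °C, with a counting interval of the ratio that holds 1 (0.737 to 1.26). HSD11B2, whose enzyme inactivates cortisol, was at 0.376 and 0.389 RPKM. The progesterone receptor gene PGR was listed at 0 in both libraries, and SERPINA6, the cortisol carrier of plasma, was listed at 0 in the control library and at 0.028 RPKM in the heat library. NR3C1 was thus the most abundant in both libraries of the matched receptor genes of this list.

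The chaperone machinery that holds the receptor ready for hormone was mostly higher in the heat library, by much less than FKBP5. Without FKBP5, 19 listed genes were compared and 15 had a log2 ratio above 0, or 78.9%, beside 58.8% of all entries. Their median log2 ratio was 0.13, none was at least 1.5-fold apart, and the counting interval of the ratio lay above 1 for 11 and below 1 for 1. Over all entries the interval lay above 1 for 20.4% and below 1 for 10.4%, but intervals are narrower for genes with more reads. HSP90AB1, a cytosolic HSP90, was at 75.8 RPKM at 22 °C and 105 RPKM at 30 °C, a ratio of 1.39 (1.36 to 1.42). HSP90AA1, the stress-inducible form, was at 212 and 279.5 RPKM, a ratio of 1.32 (1.26 to 1.38). Both belong to a family with near-identical copies among which reads can be shared, so their single values are uncertain.

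Co-chaperones act along the receptor's folding cycle, and those compared lay on both sides of 1. ST13, which steadies HSP70 on its client, was at 149 and 187 RPKM at 22 and 30 °C, a ratio of 1.26 (1.22 to 1.30). STIP1, the adaptor that passes the receptor from HSP70 to HSP90, was at 61.3 and 77.0 RPKM, also a ratio of 1.26 (1.20 to 1.32). PTGES3, the p23 protein that stabilises the hormone-binding state, was at 51.5 and 63.2 RPKM, a ratio of 1.23 (1.16 to 1.30). These 3 lay on the same side of 1 as HSP90. Below 1 were DNAJB1, a partner of HSP70, at 34.3 and 26.4 RPKM (ratio 0.770, interval 0.701 to 0.845), and the cyclophilin co-chaperone PPID, at 26.4 and 25.4 RPKM (0.964, 0.879 to 1.06). CDC37, which brings kinases to HSP90, had a ratio of 0.974 (0.927 to 1.02) and DNAJA2, another partner of HSP70, of 0.992 (0.912 to 1.08), and both intervals hold 1. PPP5C, a phosphatase of the receptor complex, was at 19.04 and 19.6 RPKM, with an interval of 0.938 to 1.13.

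FKBP4 encodes FKBP52, the close relative that competes with FKBP51 for HSP90 and favours transport of the receptor to the nucleus. It was at 70.3 RPKM at 22 °C and 79.2 RPKM at 30 °C, a ratio of 1.13 (1.08 to 1.17). FKBP5 was at 0.133 times the FKBP4 level in the control library and at 0.267 times in the heat library. That proportion was 2.01 times as high in the heat library (1.76 to 2.30), while FKBP4 remained the more abundant transcript in both. FKBP5 over HSP90AB1 was 1.63 times as high (1.43 to 1.86), FKBP5 over HSP90AA1 1.72 times (1.50 to 1.97) and FKBP5 over PTGES3 1.85 times (1.61 to 2.13).

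Other genes of the FKBP family, which share the prolyl isomerase fold but mostly do not serve the receptor, did not share the FKBP5 difference. Of 17 listed genes, 11 were matched and 9 compared. Without FKBP5, 6 of 8 had a log2 ratio below 0 and 2 above (25%, beside 58.8% of all entries), and the median was -0.10. FKBP10, a collagen chaperone of the endoplasmic reticulum, was the lowest, at 5.19 and 2.99 RPKM at 22 and 30 °C (ratio 0.575, interval 0.426 to 0.772). FKBP9, also of that compartment, was at 10.3 and 9.49 RPKM, and its interval (0.804 to 1.05) holds 1. FKBP8, an anchored mitochondrial member, was at 107 and 99.2 RPKM (0.876 to 0.981). Of the 8, the interval lay below 1 for 2 and above 1 for 1, beside 10.4% and 20.4% of all entries with an interval. FKBPL was at 1.26 and 1.64 RPKM, from a minimum of 35 and 44 reads, and its interval (0.814 to 2.08) holds 1.

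**Figure D3:**
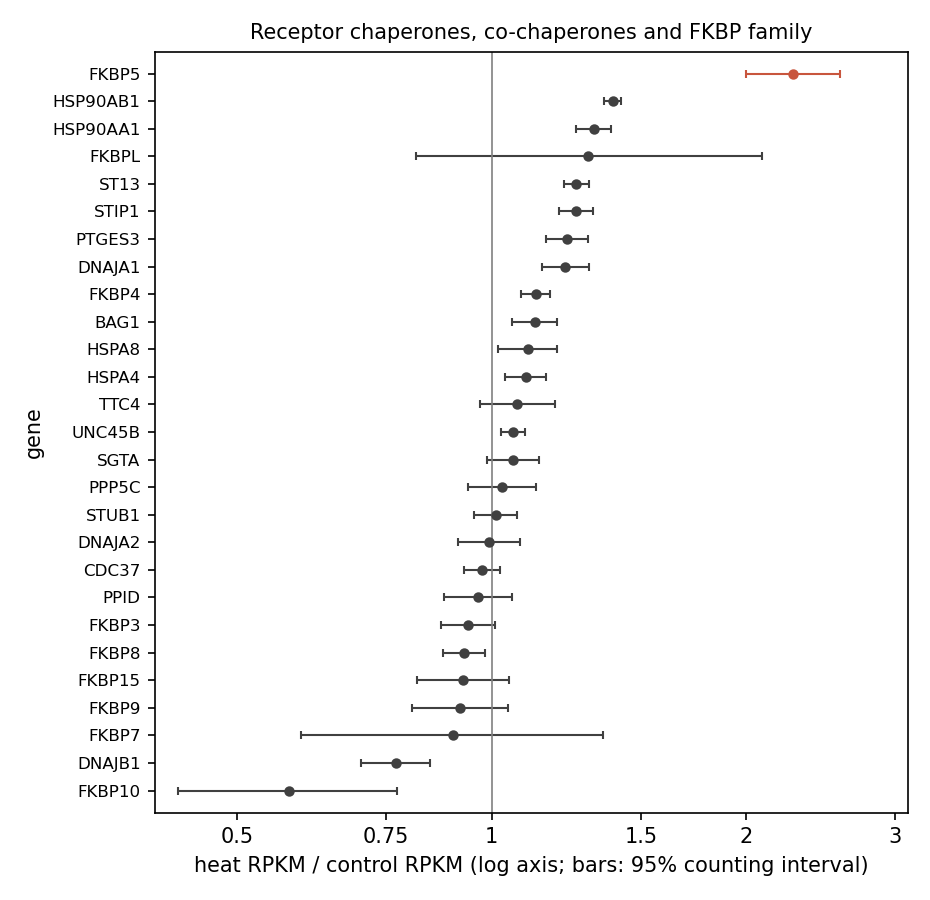
Heat RPKM over control RPKM (log axis) for the 27 compared genes among receptor chaperones, co-chaperones and the FKBP family, sorted by ratio, with bars for the 95% counting interval and FKBP5 in red. The FKBP5 point (2.27) lies to the right of every other bar, though its own bar overlaps the wide bar of FKBPL. HSP90AB1 (1.39) and HSP90AA1 (1.32) come next, and FKBP10 (0.575) is the lowest.

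Coactivators and corepressors, which carry the receptor's effect to the chromatin, lay close to the middle of all genes. Of 32 listed genes, 25 were compared, and 16 had a log2 ratio above 0 (64%, beside 58.8% of all entries). The median was 0.08 and none was at least 1.5-fold apart. The counting interval lay above 1 for 8 and below 1 for 2, beside 20.4% and 10.4% of all entries with an interval. MED14, a Mediator subunit, was at 10.96 and 13.5 RPKM at 22 and 30 °C, with an interval that holds 1 (0.996 to 1.52), and the deacetylase gene HDAC3 was at 10.6 and 12.7 RPKM (1.08 to 1.35). NRIP1, a corepressor, was at 10.8 and 9.01 RPKM (0.574 to 1.21), and the chromatin remodeller ARID1A was at 11.97 and 10.1 RPKM (0.752 to 0.947). HDAC1 was listed at 0 in both libraries although most cells use it, so an entry at 0 in this table need not mean that no transcript was there.

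Of 14 compared transcription factors that bind or cross-talk with the receptor, 10 had a log2 ratio above 0 (71.4%, beside 58.8% of all entries). The median was 0.12 and none was at least 1.5-fold apart. The counting interval lay above 1 for 7 and below 1 for 0, beside 20.4% and 10.4% of all entries with an interval. FOXO3, a factor of muscle atrophy genes, was the highest, at 10.5 RPKM at 22 °C and 14.1 RPKM at 30 °C (ratio 1.35, interval 1.21 to 1.50). JUNB, an AP-1 subunit, was at 4.73 and 6.12 RPKM (1.29, 1.07 to 1.56). NFKB1, a subunit of the inflammatory factor that the receptor restrains, was at 13.9 and 12.1 RPKM (0.871, 0.668 to 1.13), and CEBPA was at 4.02 and 3.49 (0.869, 0.643 to 1.17). The intervals of NFKB1 and CEBPA hold 1.

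Glucocorticoid target genes did not share a single direction, although more were higher than lower in the heat library. Of 52 listed genes, 31 were matched and 26 had a mean RPKM of at least 1. Without FKBP5, PER1 and ZBTB16, 16 of 23 had a log2 ratio above 0 (69.6%, beside 58.8% of all entries) with a median of 0.18. The counting interval lay above 1 for 14 and below 1 for 3, beside 20.4% and 10.4% of all entries with an interval. Intervals are narrower where reads are many, so these counts depend on level as well. By log2 ratio, PDK4, FBXO32 and ARRDC2 were at least 1.5-fold higher, as were 3.44% of all entries. No gene of the list was at least 1.5-fold lower, as were 2.37% of all entries.

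PDK4, the kinase that turns off pyruvate dehydrogenase and so spares glucose, was the gene of the list closest to FKBP5 in size. It was at 33.8 RPKM at 22 °C and 86.1 RPKM at 30 °C, and FKBP5 over PDK4 was 0.892 times its control value (0.774 to 1.03), an interval that holds 1. FBXO32, the ubiquitin ligase atrogin-1, was next with a ratio of 1.57 (1.45 to 1.70). ARRDC2, an arrestin-domain gene, was at 17.5 and 27.1 RPKM (1.55, 1.44 to 1.67), and LPIN1, a phosphatidate phosphatase, had a ratio of 1.52 (1.42 to 1.62). With the pseudocount, the log2 ratio of LPIN1 was 0.56, just under 1.5-fold. MSTN, myostatin, a brake on muscle growth, was at 16.3 and 21.3 RPKM (1.31, 1.16 to 1.48). TRIM63, the ubiquitin ligase MuRF1, was at 168 and 190.3 RPKM, a ratio of 1.14 (1.09 to 1.18).

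Other genes of the list lay nearer to 1 or below it. KLF9, a Krüppel-like factor, was at 15.99 RPKM at 22 °C and 15.9 RPKM at 30 °C (ratio 0.993, interval 0.927 to 1.06). DUSP1, a phosphatase that dampens MAP kinases, was at 87.9 and 77.8 RPKM (0.885, 0.830 to 0.944). SGK1, the serum and glucocorticoid regulated kinase, was at 7.62 and 8.72 RPKM (1.14, 1.003 to 1.31). GADD45B, a stress sensor, was the lowest of the list at 6.86 and 4.86 RPKM (0.708, 0.585 to 0.856), followed by CRISPLD2, a secreted protein, at 6.35 and 4.83 RPKM (0.762, 0.585 to 0.988). NFKBIA, the inhibitor of NF-kappaB, was at 16.7 and 19.2 RPKM (1.15, 1.04 to 1.27). The list thus ran from a log2 ratio of -0.42 for GADD45B to 1.32 for PDK4, with FKBP5 second.

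**Figure D4:**
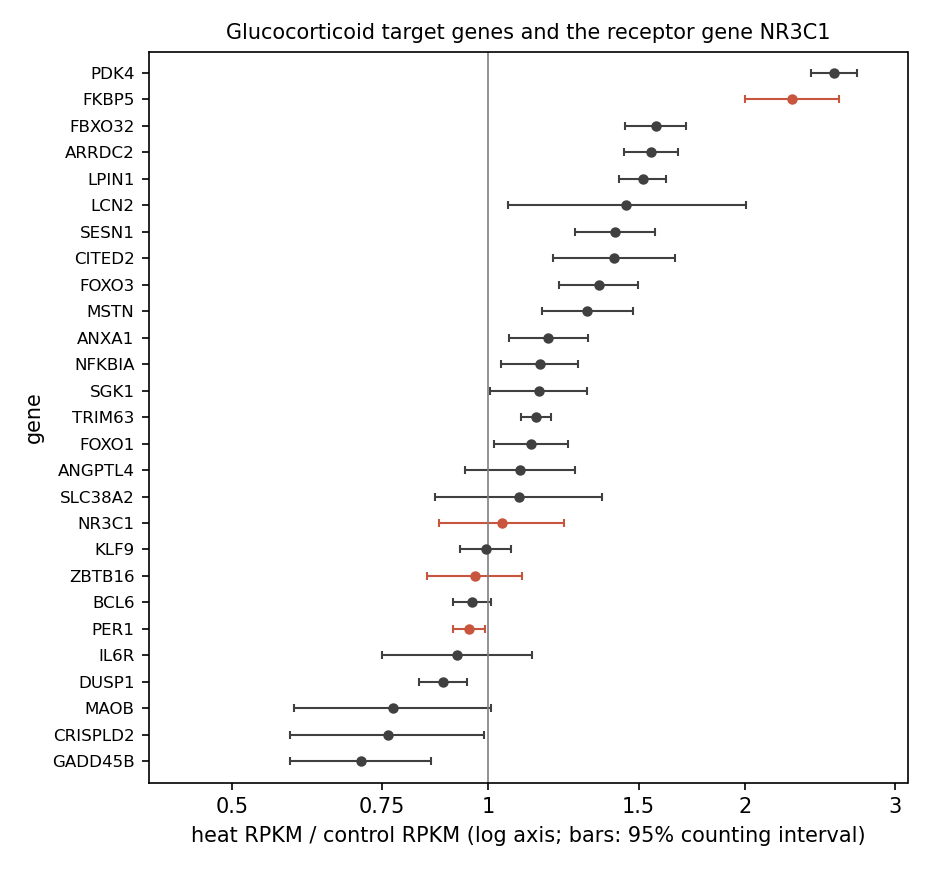
Heat RPKM over control RPKM (log axis) for the 26 glucocorticoid target genes compared and for the receptor gene NR3C1, sorted by ratio, with bars for the 95% counting interval and the 4 genes in red. PDK4 (2.54) and FKBP5 (2.27) lie apart at the top, and NR3C1 (1.04), ZBTB16 (0.964) and PER1 (0.948) lie around 1 in the lower part.

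PER1 belongs to the circadian clock, in which the activators BMAL1 and CLOCK drive the repressors of the PER and CRY families. Clock transcripts depend on the hour of sampling, which the sources used here do not give. Of 25 listed clock genes, 18 were matched and 14 compared. A log2 ratio above 0 was held by 7 (50%, beside 58.8% of all entries) and one below 0 by 7. The median was 0.00 and none was at least 1.5-fold apart. The counting interval lay above 1 for 3 and below 1 for 2, beside 20.4% and 10.4% of all entries with an interval. PER2, the paralogue of PER1, was the lowest, at 5.58 RPKM at 22 °C and 4.34 RPKM at 30 °C (ratio 0.777, interval 0.659 to 0.916). PER1 was thus 15.8 times as abundant as PER2 in the control library and 19.3 times in the heat library, a proportion 1.22 times as high (1.03 to 1.45).

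Other repressors of the clock lay on both sides of 1. CRY1 had a ratio of 0.955, CRY2 of 0.968 and NR1D2 of 0.968, while BHLHE41 had one of 1.04 and NFIL3 of 1.21, and all 5 intervals hold 1. DBP, a clock-controlled transcription factor, was at 12.3 and 11.1 RPKM (0.898, 0.785 to 1.03). Of the activators, CLOCK was at 2.76 RPKM at 22 °C and 3.80 RPKM at 30 °C (1.38, 1.05 to 1.83) on at least 92 and 123 reads, and BMAL1 was at 2.22 and 2.71 RPKM (1.22, 0.854 to 1.75) on at least 60 and 71 reads. HLF, another factor of clock output, was at 5.68 and 7.10 RPKM (1.25, 0.992 to 1.58), with an interval that holds 1. The clock genes named here beyond PER1, PER2, DBP, HLF and CLOCK were named after their values were seen.

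**Figure D5:**
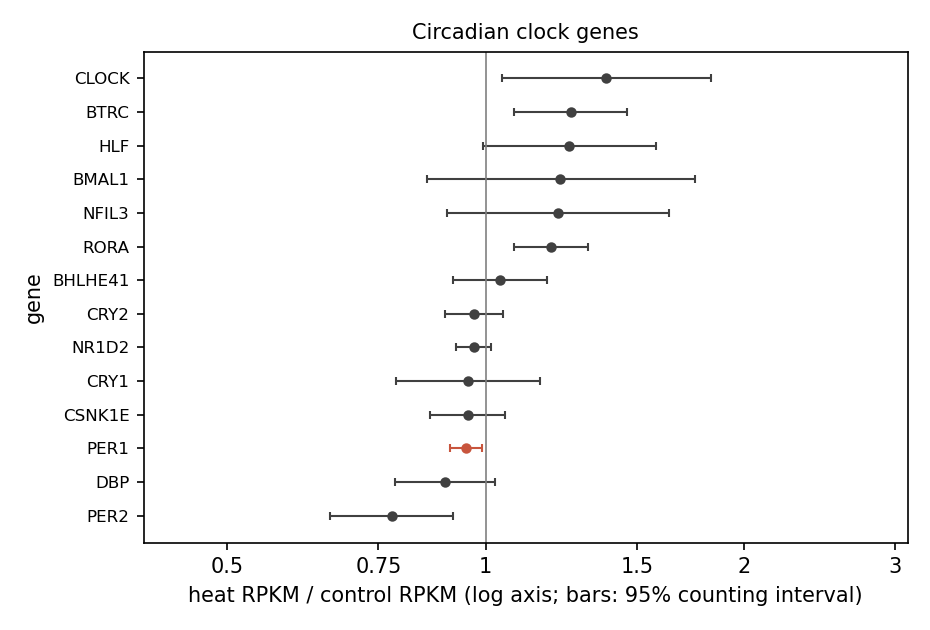
Heat RPKM over control RPKM (log axis) for the 14 circadian clock genes compared, sorted by ratio, with bars for the 95% counting interval and PER1 in red. PER1 (0.948) has a narrow bar just below 1, PER2 (0.777) is the lowest, and CLOCK (1.38) is the highest.

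ZBTB16 joins a BTB domain, through which such proteins recruit the ubiquitin ligase scaffold CUL3 and corepressors, to zinc fingers. Among its partners and relatives of the ZBTB family, 22 of 49 listed genes were compared. Without ZBTB16, 10 had a log2 ratio above 0 (47.6%, beside 58.8% of all entries) and 11 below. The median was -0.02 and none was at least 1.5-fold apart by log2 ratio. CUL3 was at 33.5 RPKM at 22 °C and 35.8 RPKM at 30 °C (ratio 1.07, interval 1.001 to 1.14). ZBTB12 (1.71 and 2.73 RPKM) and ZBTB41 (1.28 and 2.11 RPKM) were the highest, on at least 67 and 32 control reads. Their RPKM ratios, without the pseudocount of 1, were 1.60 and 1.65, past 1.5-fold. ZBTB48, a telomere-binding member, at 3.59 and 2.67 RPKM, and the deacetylase HDAC5, at 20.1 and 17.1 RPKM, were the lowest. In level ZBTB16 stood below its relatives BCL6 (38.5 and 36.9 RPKM), ZBTB44 (26.2 and 31.8 RPKM) and ZBTB47 (20.1 and 19.3 RPKM), and above the other ZBTB genes compared.

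FKBP51 is also known as a scaffold that brings the phosphatase PHLPP to the kinase AKT, which places it beside insulin signalling in muscle. Of 26 listed genes of the AKT and mTOR pathway, 20 were compared. Of these, 13 had a log2 ratio above 0 (65%, beside 58.8% of all entries), the median was 0.08 and none was at least 1.5-fold apart. The counting interval lay above 1 for 7 and below 1 for 2, beside 20.4% and 10.4% of all entries with an interval. The insulin receptor gene INSR was at 3.33 RPKM at 22 °C and 4.37 RPKM at 30 °C (ratio 1.31, interval 1.05 to 1.65), and PIK3CA, a catalytic subunit of phosphoinositide kinase, was at 5.69 and 7.23 RPKM (1.27, 1.14 to 1.42). SLC2A4, the insulin-responsive glucose transporter, was at 6.34 and 4.99 RPKM (0.787, 0.648 to 0.955). AKT2, the main AKT form of insulin signalling in muscle, was at 87.2 and 77.5 RPKM (0.889, 0.845 to 0.936). PHLPP1 was at 1.57 and 1.74 RPKM, from a minimum of 43 and 46 reads, and its interval (0.713 to 1.71) holds 1.

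The genes whose levels in the 2 libraries lay nearest to those of each gene were found by Euclidean distance in log2(RPKM + 1), which over 2 libraries is only a likeness of level. For FKBP5 they were the small nucleolar RNA gene SNORD34 (9.55 and 16.0 RPKM, distance 0.38), LPIN1 (11.9 and 18.0 RPKM, 0.39) and SNORD86 (9.36 and 15.3 RPKM, 0.45). The nearest gene to FKBP5 was thus much farther away than those of the other 3. FKBP5 was chosen with its values known, so nothing is read from that distance. For NR3C1 they were NID1, LARP4 and PRCC, for PER1 PFN1 and NDUFB6, and for ZBTB16 SAMD4A, CD2BP2 and PLOD1, all at distances of 0.01 to 0.02.

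Genes beside the 4 in RefSeq's gene order of the Sscrofa11.1 assembly were looked up after the results were known, among protein-coding genes with a symbol in the table. On one side of FKBP5 lay TEAD3, at 7.42 and 7.88 RPKM at 22 and 30 °C, and then PPARD, at 6.38 and 5.76 RPKM. On the other side lay ARMC12, at 0.623 and 1.42 RPKM, and then CLPSL2, listed at 0 in both. The ratio of ARMC12 was 2.27, as large as that of FKBP5, on a minimum of 5 and 11 reads, and its interval (0.728 to 8.34) holds 1. TEAD3 and PPARD had ratios of 1.06 and 0.902. Over both libraries the neighbours of NR3C1 ran from 0.369 RPKM for ARHGAP26 to 4.75 RPKM for SH3RF2. Those of PER1 ran from 0 for ALOXE3 to 7.84 RPKM for BORCS6, and those of ZBTB16 from 0 for NNMT to 3.72 RPKM for RBM7. Beside NR3C1, intervals lay above 1 for ARHGAP26 (ratio 2.14, 1.34 to 3.49, on at least 28 and 58 reads), FGF1 (1.52, 1.20 to 1.93) and SH3RF2 (1.25, 1.07 to 1.47). That of PRELID2 (0.589 to 1.97) holds 1. Also above 1 were TMEM107 beside PER1 (1.53, 1.17 to 2.01) and RBM7 beside ZBTB16 (1.31, 1.10 to 1.56). The intervals of ALOX12B, BORCS6 and HTR3B hold 1. The annotation places 2 uncharacterised loci over FKBP5, 1 over NR3C1 and 2 over ZBTB16, and none over PER1. No strand marking is described for the library kit, and reads of these loci could not then be separated from those of the gene.

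Library totals recovered from the RPKM values were 23608242 reads at 22 °C and 22863584 at 30 °C. Muscle fibre markers dominated both, with 6 matched markers of 12 listed summing to 114774 RPKM at 22 °C and 110428 RPKM at 30 °C. In bulk muscle, fewer cells of a type and less RNA per cell cannot be told apart. Of 10 adipocyte markers 6 were matched, and 5 of these were lower in the heat library. The 6 summed to 906 and 817 RPKM, but GPD1 alone was at 879 and 799 RPKM, so the sum says little about the others. CIDEC was at 7.56 and 3.48 RPKM and PLIN1 at 10.1 and 6.64 RPKM. Of 10 fibroblast markers 7 were matched and summed to 973 and 879 RPKM, 5 of them lower in the heat library. The 7 matched of 10 endothelial markers summed to 158 and 176 RPKM, 5 of them higher in the heat library. PECAM1 was most of that sum, at 111 and 127 RPKM. The 7 matched macrophage markers of 10 summed to 41.4 and 39.9 RPKM, and 5 of the 7 were lower in the heat library. The lysozyme gene LYZ, at 1.09 and 3.29 RPKM, had the highest log2 ratio of that list and TYROBP, at 11.3 and 7.83 RPKM, the lowest. The 7 matched of 10 lymphocyte markers summed to 4.33 and 4.28 RPKM, but this sum hides opposite differences. CD2 was higher in the heat library (ratio 2.41, interval 1.58 to 3.74), on at least 33 and 77 reads. CD8A was lower, at 1.57 and 0.644 RPKM (0.409, 0.241 to 0.674), on at least 58 and 23 reads. Smooth muscle and pericyte markers (5 of 8) summed to 106 and 116 RPKM. Of these, 3 were lower in the heat library, and ACTA2 was at 52.0 and 67.9 RPKM. Satellite cell markers (5 of 6) summed to 28.3 and 33.5 RPKM, with VCAM1 at 12.6 and 18.0 RPKM. MYF5, CALCR and CHRDL2, each with a mean RPKM under 1, were lower in the heat library. Red blood cell markers (3 of 6) summed to 89.5 and 113 RPKM, nearly all of it HBB (89.0 and 112 RPKM). Among matched markers only SLC4A1, of red blood cells, was listed at 0, in the heat library. The part of these cell types in the FKBP5 difference was not tested.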

How the data were processed

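Messenger RNA was sequenced from 1 library per arm, made per the labels' protocols from 3 µg of RNA with poly(A) selection and 10 PCR cycles. The deposited table holds 1 RPKM value per gene and library, computed by the authors. Bowtie, TopHat 1.4.0, Cufflinks 1.3.0 and build Sscrofa10.2 appear in the submitters' processing notes without a stated role. The sources used here do not give how reads were counted or how those with several matches were treated. The reference used here is of another build, so no coordinates or sequences are given.

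Gene names came from a table that matched 11374 of 27987 entries. Where a symbol stood on several entries the highest was taken. The effect was the log2 ratio with a pseudocount of 1 over 13191 entries with a mean RPKM of at least 1, which shrinks the difference of low genes. Genes were counted past a fold of 2 or 1.5, and no test was run, as each arm has 1 library.

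Reads were recovered from the values. The most frequent ratio among low genes gave the ratio of library totals (1.03). With it, 99.9% of 13134 low entries gave whole reads of at most 1000 within the rounding of the deposited digits. Totals were set so that gene lengths came out whole, and the smallest reads that fit both values and a whole length (within 0.0002 bp) were used. They could be had for 99.3% of entries compared, and true reads can be a multiple, which would make intervals narrower. Without molecular identifiers PCR copies count as reads, so intervals cover counting error only. Among 400 low genes scanned, 80% had a whole length (within 0.01 bp) at the smallest pair of reads. The steps were also run on simulated reads, and the outcome is not given here.

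The 4 genes, the 9 gene lists (246 genes, 169 matched) and 9 marker lists (82 genes, 53 matched) were chosen with earlier results of these data known. Unmatched genes, among them NR3C2, PER3, TSC22D3 and HSD11B1, were not analysed here, and a few genes are not reported here. The genes named are the 4, fixed relatives, the highest and lowest 2 of each list, list genes past 2-fold and the 3 nearest to each of the 4. Other list genes, the extremes of most marker lists left out, were named after their values were seen. Python 3.11.15, pandas 2.3.3 and SciPy 1.17.1 were used.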

Additional observations from a re-analysis of the deposited data

How the results depend on the processing

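No paired analysis was possible because each arm has 1 library. The log2 ratio of FKBP5 ran from 0.87 to 1.17 over 6 alternatives and was under 2-fold only with a pseudocount of 5 (0.87), which lowers every difference by construction. The values of PER1 (-0.14 to -0.03) and ZBTB16 (-0.11 to -0.01) stayed below 0, while NR3C1 (-0.01 to 0.09) crossed 0 when values were centred on the median or rescaled by a trimmed mean. The list medians of target genes (0.12 to 0.22), chaperones (0.07 to 0.18) and the FKBP family (-0.15 to -0.06) kept their sign over 9 alternatives, while those of the clock (-0.05 to 0.05) and ZBTB (-0.09 to 0.01) lists and of the receptor list (-0.05 to 0.05) crossed 0. The counts of 83 higher and 77 lower entries depended on the settings. A pseudocount of 0.1 gave 290 and 193, and 5 gave 7 and 20. Requiring a mean RPKM of 5 left 17 and 26. Among entries with a symbol there were 10 and 10, an alternative chosen after seeing the data, as was leaving the 4 genes out of the lists. Listed genes at least 1.5-fold apart by log2 ratio numbered 5, and 8 with a pseudocount of 0.1. No rescaling shifted the overall median by 0.1, and none of the 5 listed genes past 1.5-fold (FKBP5, PDK4, FBXO32, ARRDC2 and FKBP10) turned direction over 6 alternatives. Depth limits low genes, since 1 read on a gene of 1 kb is worth 0.0424 RPKM in the control library.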
